A study of Mus musculus with 8 samples.

Results

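The Toll-like receptors of subcutaneous melanoma tumors were examined under treatment with an antibody against PD-1. They were chosen by name: Tlr1, Tlr2, Tlr3, Tlr4, Tlr5, Tlr6, Tlr7, Tlr8, Tlr9 and Tlr13, which are 10 of the 28918 genes in the expression table. Their values were read in all 8 libraries, and the portions of a tumor were averaged. The tumors grew from B16-mhgp100 cells, a line of the mouse melanoma B16 with a gp100 antigen, in C57BL/6 mice. The 3 Colq tumors came from cells with Colq over-expression and the 3 vector tumors from cells with the vector alone. The product of Colq is a collagen-like tail by which acetylcholinesterase is held at the neuromuscular junction. Mice of both groups carried the same cell line and received the same antibody, 200 µg per dose from day 10 after inoculation, 2 doses per week and 4 doses in all, and RNA was taken 1 day after the final dose. No untreated tumors enter the comparison, so the values describe tumors under the antibody only. Each Colq tumor gave 1 library, vector tumors 1 and 2 gave 2 portions each, and vector tumor 3 gave 1 library. The labels name separate tumors but do not say whether they came from separate cultures or days, so a p-value measures only the spread between these tumors. The tissue is bulk tumor, a mixture of melanoma cells and host cells.

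Toll-like receptors are membrane proteins of macrophages, dendritic cells and other sentinel cells that bind molecules of microbes and of injured cells through leucine-rich repeats. Tlr1, Tlr2, Tlr4, Tlr5 and Tlr6 act mainly at the cell surface on lipids and proteins, and Tlr3, Tlr7, Tlr8, Tlr9 and Tlr13 act in endosomes on nucleic acids. On binding, the receptors recruit the adaptors Myd88 or Ticam1, which switch on NF-kB and interferon regulatory factors and with them cytokines, chemokines and costimulatory molecules. Agonists of several members, among them poly(I:C) for Tlr3, imiquimod for Tlr7 and CpG DNA for Tlr9, are studied as adjuvants in tumor therapy.

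Promoter windows are shown for the member called on every scale, Tlr3, and for the pair whose levels varied most alike, Tlr9 and Tlr13. Each window runs from 250 bases before to 50 bases after the RefSeq start site in build GRCm38.p6, is written 5′ to 3′ in the gene's direction, and has its matches in capitals. RefSeq windows were matched for 8 of the 10 members, 10 windows in all, since Tlr1 and Tlr6 have 2 each. A member is counted below if any of its windows holds the motif, whereas the shares of all mouse windows are per window. The Tlr3 window lies at chr8:45410331-45410630 on the minus strand, the Tlr9 window at chr9:106222348-106222647 on the plus strand and the Tlr13 window at chrX:106143025-106143324 on the plus strand.
Tlr3: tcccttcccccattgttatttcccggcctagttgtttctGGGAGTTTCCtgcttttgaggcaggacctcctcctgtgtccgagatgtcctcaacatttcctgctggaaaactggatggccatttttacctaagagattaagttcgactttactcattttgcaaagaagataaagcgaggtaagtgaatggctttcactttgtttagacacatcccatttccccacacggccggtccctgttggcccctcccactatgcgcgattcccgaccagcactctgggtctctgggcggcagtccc
Tlr9: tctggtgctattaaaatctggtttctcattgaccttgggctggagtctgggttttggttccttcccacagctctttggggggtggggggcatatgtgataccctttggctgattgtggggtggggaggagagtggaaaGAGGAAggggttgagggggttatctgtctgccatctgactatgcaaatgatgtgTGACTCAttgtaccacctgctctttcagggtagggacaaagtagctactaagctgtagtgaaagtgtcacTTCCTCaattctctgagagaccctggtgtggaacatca
Tlr13: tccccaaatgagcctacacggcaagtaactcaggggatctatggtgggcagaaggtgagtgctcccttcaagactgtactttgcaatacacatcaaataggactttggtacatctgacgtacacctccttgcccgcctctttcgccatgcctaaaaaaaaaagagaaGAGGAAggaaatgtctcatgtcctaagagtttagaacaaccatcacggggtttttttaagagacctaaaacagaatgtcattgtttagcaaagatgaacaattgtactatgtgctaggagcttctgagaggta
The searches ran on both strands. The capitals in the Tlr3 window are a match to the NF-kB motif (GGGA, any base, TTTCC) at position -211 from the start site, found in 0.411% of 32851 mouse windows of the same length and in 1 of the 8 members. The capitals in the Tlr9 and Tlr13 windows are GAGGAA, the core of the site of the myeloid factor PU.1, written TTCCTC where it lies on the other strand, which was found in 28.3% of all windows and in 4 of the 8 members (Tlr1, Tlr8, Tlr9 and Tlr13). The Tlr9 window also holds TGACTCA, a match to the AP-1 motif TGANTCA, which 7.81% of all windows contain. The IRF motif, GAAA and GAAA with any 2 bases between, was found in 1 of the 8 members, Tlr6, and in 3.44% of all windows. These matches describe letters in a window and were not tested as binding sites.

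A further sequence is the longest exact stretch shared by the coding sequences of Tlr1 and Tlr6, within which their reads cannot be told apart. Shorter shared stretches are not printed. The coding sequences of these neighboring genes share an exact run of 229 bases, from base 1468 to 1696 of Tlr1 and from base 1507 to 1735 of Tlr6 (GRCm38 transcripts).
Tlr1 and Tlr6: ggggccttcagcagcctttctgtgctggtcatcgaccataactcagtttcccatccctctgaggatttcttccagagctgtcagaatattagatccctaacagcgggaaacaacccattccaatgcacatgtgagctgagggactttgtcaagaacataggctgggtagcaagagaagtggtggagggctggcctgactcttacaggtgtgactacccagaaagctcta
Of the 50-base windows in the coding sequence, 19.4% of those in Tlr1 and 19.2% of those in Tlr6 occurred in the other gene, and no other pair of members shared any. The split of reads between Tlr1 and Tlr6 was estimated by the authors' counting, so their separate values are less certain than those of the other members.

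Expression was held as TPM, the share of a library's transcripts corrected for transcript length, which allows levels of different genes to be compared but keeps no library depth. The depth of each library is therefore unknown, although the authors' deposited table gives a mean normalized count per gene, from 13.7 for Tlr5 and 77.5 for Tlr8 to 641 for Tlr3, and precision rests on the spread between tumors. Colq itself stood at 4.05, 5.03 and 3.86 TPM in the Colq tumors and between 0 and 0.24 TPM in the vector libraries, in the direction of the labels. Melanoma markers were high in every library, with a summed TPM of 12406 to 12804 in the Colq group and 21385 to 25226 in vector tumors. The macrophage markers Adgre1, Csf1r and Cd68 were present in every library, and the B cell marker Ms4a1 stayed at or under 0.14 TPM. Ms4a1 is 1 of 10 B cell markers, of which 2 passed the filter used below. These were Cd79b (means of 1.47 TPM in the Colq group and 1.28 TPM in the vector group) and Cd22 (1.24 and 1.14 TPM). The Colq libraries differed from one another by a median of 0.106 to 0.111 on the log2 scale, less than the portions of a single vector tumor, at 0.144 and 0.219. The labels call them 3 tumors, and whether they vary as separate tumors do was not tested. If they do not, the p-values are too small, and the fit was also run with the Colq libraries counted as 1 sample. All comparisons below set 3 tumors against 3 on log2(TPM + 1) (limma with Benjamini-Hochberg adjustment over 13726 genes), a scale that understates the change of low genes. Across these genes the median log2 difference, Colq minus vector, was -0.50, and each difference is read against it. Size factors, which set that median near 0 (-0.03), were used as a second scale.

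Transcripts of Tlr3 fell in Colq tumors, to less than those of any vector library, and this difference was called under every setting tried. Tlr3 was the most abundant member in both groups. Tlr4, the next most abundant, was slightly lower in Colq tumors as deposited, but its direction turned on other scales. No member was called higher as deposited, and Tlr1 was called higher once the scale was recentered. Of the 9 members that passed the filter of a mean of at least 1 TPM, 0 were called higher and 2 lower (Tlr3 and Tlr4), where 11.3% of all tested genes were called higher and 59.6% lower. The 7 others did not pass the threshold, 5 of them with a negative and 2 with a positive log2 difference. On the size factor scale 1 member was higher (Tlr1) and 1 lower (Tlr3), beside 26.5% and 27.4% of all genes. The median log2 difference of the 9 was -0.30 as deposited and 0.14 on the size factor scale.

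**Figure D1:**
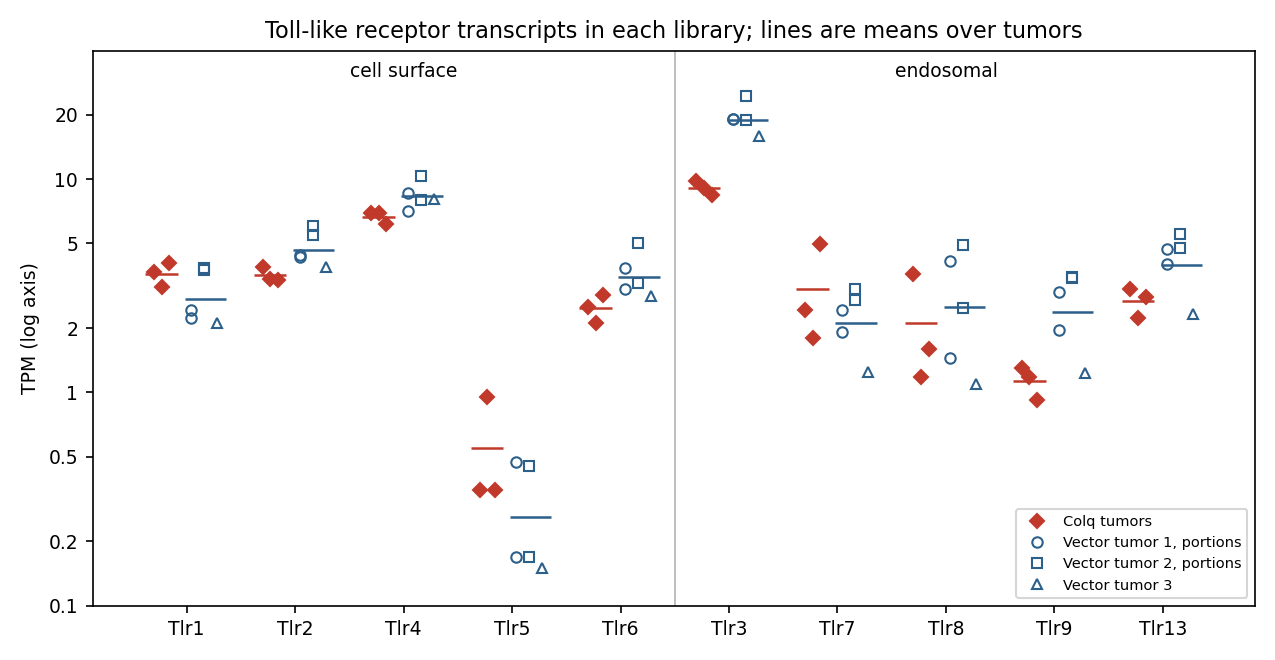
TPM of each Toll-like receptor in each library on a log axis, with cell surface members on the left and endosomal members on the right; filled diamonds are Colq tumors, open symbols are libraries of the 3 vector tumors, and lines are means over tumors. Tlr3 stands highest in both groups, with Colq tumors at 8.44 to 9.80 TPM below every vector library, while the groups overlap for most other members.

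The endosomal receptors are described first. Tlr3 recognizes double-stranded RNA and signals through Ticam1 alone. It lies on chromosome 8, 45395665 to 45411080, minus strand (GRCm38), identifier ENSMUSG00000031639, with 8 exonic blocks and 5207 exonic bases. Tlr3 stood at 9.80, 9.05 and 8.44 TPM in the Colq tumors. It stood at 19.13 and 19.09 TPM in the portions of vector tumor 1, at 19.01 and 24.43 TPM in those of vector tumor 2 and at 16.00 TPM in vector tumor 3. No Colq tumor reached the level of any vector library. The means were 9.10 ± 0.68 and 18.9 ± 2.86 TPM (SD, n = 3 each), 2.08-fold higher in vector tumors. The log2 difference was -0.97 (SE 0.12; limma, adjusted p = 0.000271), 0.47 below the median of all genes and at percentile 16.7 among them. By an exact two-sided permutation test p was 0.1, and no smaller value can be reached with 3 tumors a group. Tlr3 thus lay below the general shift of the deposited values. On the size factor scale the log2 difference was -0.47 (SE 0.12, limma adjusted p = 0.0140), and in the authors' deposited table it was -0.51 (SE 0.14, adjusted p = 0.00114). Over 19 alternatives it ran from -1.08 to -0.40 and stayed under the threshold in each, with adjusted p from 6.46e-05 to 0.0255, and 0.0217 with the Colq libraries as 1 sample. The exons of Tlr3 overlap those of the antisense gene Gm45542 over 381 bases (7.32% of its exonic length), and in these libraries without strand the reads of this stretch cannot be assigned.

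Tlr7 recognizes single-stranded RNA. It lies on chromosome X, 167304929 to 167330558, minus strand, identifier ENSMUSG00000044583. It stood at 2.44, 1.79 and 4.98 TPM in the Colq tumors, at 2.44, 1.92, 2.71 and 3.06 TPM in the portions of vector tumors 1 and 2, and at 1.25 TPM in vector tumor 3. Colq tumor 3 was the highest of all libraries and vector tumor 3 the lowest, and the groups overlapped. The log2 difference of 0.35 (SE 0.32) did not pass the threshold (limma, adjusted p = 0.354), nor did that on the size factor scale, 0.73 (adjusted p = 0.105). The authors' deposited table gave 1.09 (SE 0.39, adjusted p = 0.0169).

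Tlr8, the neighbor of Tlr7 on chromosome X (167242696 to 167264329, minus strand, identifier ENSMUSG00000040522), also belongs to the receptors of single-stranded RNA. It stood at 3.61, 1.18 and 1.59 TPM in the Colq tumors, at 4.14, 1.45, 2.48 and 4.89 TPM in the portions of vector tumors 1 and 2, and at 1.09 TPM in vector tumor 3. No member other than Tlr8 differed so much between portions of the same tumor among those tested, by 2.86-fold in vector tumor 1 and 1.97-fold in vector tumor 2. Portions of the same tumor thus covered most of the range seen over all libraries, and a difference between the groups was not detectable at this spread (log2 difference -0.12, SE 0.37, limma adjusted p = 0.776). The sign was positive on the size factor scale, at 0.19 (adjusted p = 0.696), and in the authors' deposited table, at 0.42 (SE 0.47, adjusted p = 0.532).

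Tlr9 recognizes DNA rich in unmethylated CpG and lies on chromosome 9, 106222598 to 106226883, plus strand, identifier ENSMUSG00000045322. It stood at 1.30, 1.18 and 0.92 TPM in the Colq tumors, at 2.95, 1.96, 3.46 and 3.43 TPM in the portions of vector tumors 1 and 2, and at 1.23 TPM in vector tumor 3. Vector tumors 1 and 2 lay above all Colq tumors, and vector tumor 3 lay among them. The log2 difference of -0.61 (SE 0.26) did not pass the threshold (limma, adjusted p = 0.0712), and it was -0.28 on the size factor scale (adjusted p = 0.377) and -0.53 in the authors' deposited table (SE 0.37, adjusted p = 0.284). Plasmacytoid dendritic cells are known for high Tlr7 and Tlr9. Of 9 of their markers 4 were tested, 1 higher (Cox6a2, 2.12) and 1 lower (Tcf4, -1.34). All 10 skeletal muscle markers were higher in Colq tumors too, and whether Cox6a2 rose with muscle was not tested. The 5 other plasmacytoid markers, among them Siglech (0.653 ± 0.407 and 0.343 ± 0.068 TPM, SD, n = 3 each), were under the filter. The part of these dendritic cells was not tested.

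Tlr13, a receptor for bacterial ribosomal RNA that humans lack, lies on chromosome X, 106143204 to 106160493, plus strand, identifier ENSMUSG00000033777. It stood at 3.05, 2.23 and 2.81 TPM in the Colq tumors, at 4.72, 3.98, 5.53 and 4.76 TPM in the portions of vector tumors 1 and 2, and at 2.33 TPM in vector tumor 3. The pattern was that of Tlr9, with vector tumor 3 at the level of the Colq tumors. The log2 difference was -0.38 (SE 0.24, limma adjusted p = 0.192) as deposited, 0.03 on the size factor scale (adjusted p = 0.916) and 0.00 in the authors' deposited table (SE 0.28, adjusted p = 0.999).

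Among the surface receptors, Tlr4 binds bacterial lipopolysaccharide together with Ly96 and Cd14. It lies on chromosome 4, 66827584 to 66930284, plus strand, identifier ENSMUSG00000039005. Tlr4 stood at 6.92, 6.97 and 6.13 TPM in the Colq tumors, at 8.64, 7.11, 7.99 and 10.39 TPM in the portions of vector tumors 1 and 2, and at 8.04 TPM in vector tumor 3. Every Colq tumor lay below every vector library and the closest values were 6.97 and 7.11 TPM. The means were 6.67 ± 0.47 and 8.37 ± 0.72 TPM (SD, n = 3 each). The log2 difference of -0.28 (SE 0.10) passed the threshold (limma, adjusted p = 0.0406), although it was smaller than the median shift of all genes. The sign turned to 0.19 on the size factor scale (adjusted p = 0.118), to 0.20 after quantile normalization (0.0838) and to 0.30 once the trend on exonic length was removed (0.0443), and the authors' deposited table gave 0.22 (SE 0.13, adjusted p = 0.194). The call as deposited was lost when the Colq libraries counted as 1 sample (adjusted p = 0.222), without Colq tumor 1, 2 or 3 (adjusted p = 0.0749, 0.0681 and 0.131) and without vector tumor 2 (adjusted p = 0.123). Tlr4 therefore has no direction that holds across the scales.

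Tlr2 binds lipoproteins as a partner of Tlr1 or Tlr6. It lies on chromosome 3, 83836272 to 83841767, minus strand, identifier ENSMUSG00000027995. It stood at 3.89, 3.42 and 3.37 TPM in the Colq tumors, at 4.42, 4.30, 5.49 and 6.01 TPM in the portions of vector tumors 1 and 2, and at 3.87 TPM in vector tumor 3. Only Colq tumor 1 and vector tumor 3 overlapped. The log2 difference was -0.30 (SE 0.15, limma adjusted p = 0.111) as deposited, 0.14 on the size factor scale (adjusted p = 0.452) and 0.16 in the authors' deposited table (SE 0.21, adjusted p = 0.616).

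Tlr1, which with Tlr2 binds triacylated lipoproteins, lies on chromosome 5, 64924679 to 64933563, minus strand, identifier ENSMUSG00000044827. It stood at 3.65, 3.13 and 4.04 TPM in the Colq tumors, at 2.43, 2.23, 3.76 and 3.82 TPM in the portions of vector tumors 1 and 2, and at 2.12 TPM in vector tumor 3. Vector tumor 2 lay among the Colq tumors and the other vector tumors below them. The log2 difference of 0.32 (SE 0.19) did not pass the threshold as deposited (limma, adjusted p = 0.171). It passed on the size factor scale, at 0.73 (SE 0.19, adjusted p = 0.0136), and with the length trend removed, at 0.68 (0.0222). The authors' deposited table gave 0.96 (SE 0.27, adjusted p = 0.00172). Without vector tumor 2 the deposited values gave 0.51 (adjusted p = 0.0248).

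Tlr6, which with Tlr2 binds diacylated lipoproteins, lies beside Tlr1 on chromosome 5, 64952031 to 64960097, minus strand, identifier ENSMUSG00000051498. It stood at 2.51, 2.12 and 2.85 TPM in the Colq tumors, at 3.07, 3.84, 3.27 and 5.01 TPM in the portions of vector tumors 1 and 2, and at 2.82 TPM in vector tumor 3. Only Colq tumor 3 and vector tumor 3 overlapped. The log2 difference was -0.34 (SE 0.16, limma adjusted p = 0.0870) as deposited, 0.06 on the size factor scale (adjusted p = 0.794) and 0.08 in the authors' deposited table (SE 0.25, adjusted p = 0.846). As deposited, the sign of Tlr6 differed from that of Tlr1, with which it shares sequence. Added together, Tlr1 and Tlr6 stood at 6.16, 5.25 and 6.89 TPM in the Colq tumors and at 5.79, 7.93 and 4.94 TPM in the vector tumors, and the groups overlapped.

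Tlr5, the receptor for flagellin, lies on chromosome 1, 182954788 to 182976044, plus strand, identifier ENSMUSG00000079164. It stood at 0.35, 0.95 and 0.35 TPM in the Colq tumors, at 0.47, 0.17, 0.17 and 0.45 TPM in the portions of vector tumors 1 and 2, and at 0.15 TPM in vector tumor 3. It was the lowest member in both groups and failed the filter, with a mean of 0.405 TPM over tumors. The tumor means did not overlap, but single portions did, and the exact permutation test over tumors gave p = 0.1. The authors' deposited table gave 1.83 (SE 0.72, adjusted p = 0.0293) from the lowest mean normalized count of the members. Mice also have Tlr11 and Tlr12, which are not among the 10 members and which failed the filter, at 0.793 ± 0.120 and 0.573 ± 0.208 TPM in the Colq group and 0.152 ± 0.044 and 0.990 ± 0.370 TPM in the vector group (SD, n = 3 each). The authors' deposited table gave 2.96 for Tlr11 (SE 0.59, adjusted p = 2.97e-06) and -0.21 for Tlr12 (SE 0.51, adjusted p = 0.802). With no filter Tlr11 was at 0.64 (limma adjusted p = 0.00170) and Tlr12 at -0.32 (limma adjusted p = 0.277).

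**Figure D2:**
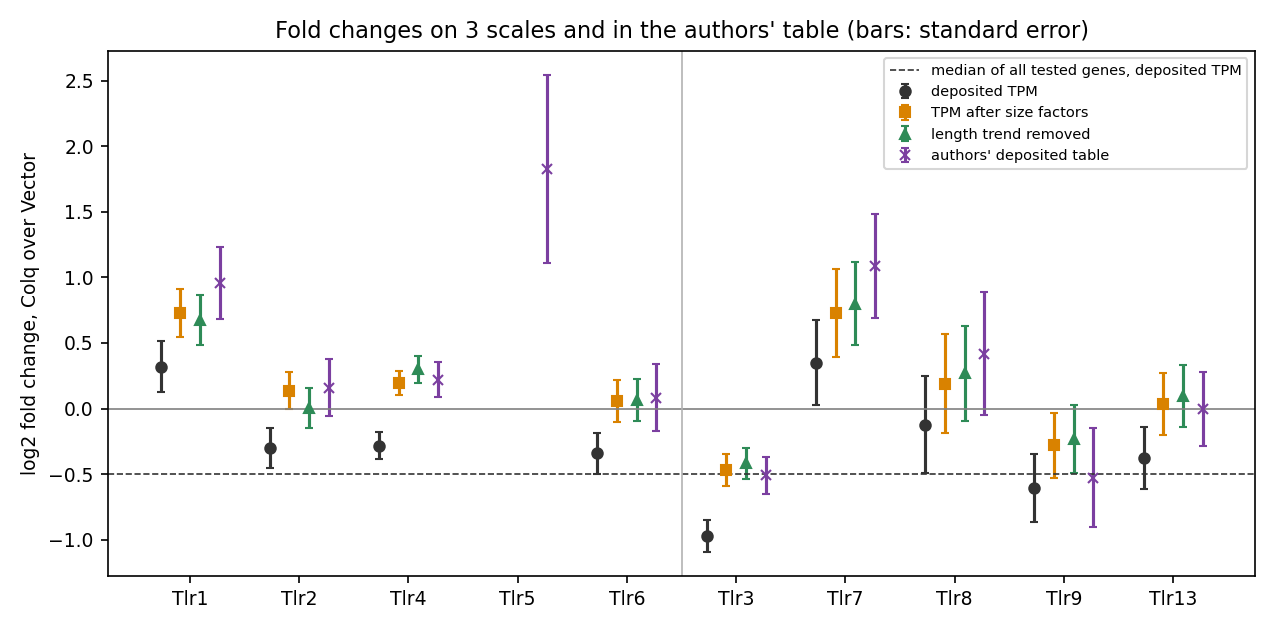
Log2 fold changes, Colq over vector, of each Toll-like receptor from deposited TPM, from TPM after size factors, with the trend on exonic length removed, and in the authors' deposited table; bars are standard errors and the dashed line is the median of all tested genes as deposited (-0.50). Tlr3 lies below 0 in all 4 sets, at -0.97, -0.47, -0.42 and -0.51, Tlr1 lies above 0 in all 4, and Tlr4 is negative only as deposited; Tlr5 was under the filter and appears only from the authors' table.

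The scale decided the sign of 5 of the 9 tested members (Tlr2, Tlr4, Tlr6, Tlr8 and Tlr13), which were negative as deposited and positive after size factors. The members' genes hold between 3014 and 5556 exonic bases, and the 4380 tested genes of 3000 to 5600 bases had a median of -0.52, with 66.3% called lower and 7.21% higher. With the trend removed, Tlr1 and Tlr4 were called higher and Tlr3 lower, beside 19.8% and 27.3% of 13211 genes. In the authors' deposited table, whose direction was taken from that of Colq and whose use of the portions is not stated, with a median log2 fold change of 0.03, Tlr1, Tlr5 and Tlr7 were higher and Tlr3 lower among the 10, beside 20.1% higher and 20.4% lower of 19153 genes. Tlr3 was the only member called in the same direction in all 4 sets.

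The order of the levels was read within each group from the tumor values. In Colq tumors Tlr3 (9.10 TPM) stood above Tlr4 (6.67 TPM) and Tlr4 above Tlr1 (3.61 TPM) with no overlap. From there every neighbor in the order overlapped: Tlr1, Tlr2 (3.56), Tlr7 (3.07), Tlr13 (2.70), Tlr6 (2.49), Tlr8 (2.13), Tlr9 (1.13) and Tlr5 (0.55 TPM). In vector tumors Tlr3 (18.9 TPM) and Tlr4 (8.37 TPM) again stood apart from each other and from the rest. They were followed by Tlr2 (4.66), Tlr13 (3.94), Tlr6 (3.47), Tlr1 (2.75), Tlr8 (2.52), Tlr9 (2.38) and Tlr7 (2.11 TPM), each overlapping the next, and then by Tlr5 (0.26 TPM) with no overlap. Tlr1 stood in the sixth place in vector tumors and in the third in Colq tumors, and Tlr7 in the ninth and the fifth, among neighbors that overlap.

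The sum of the family and the share of each member in it were compared too. The summed TPM of the 10 members was 37.5, 32.0 and 35.5 in the Colq group and 49.2, 60.1 and 38.9 in the vector group. Surface members summed to 16.6 to 17.3 TPM in the Colq group and 17.0 to 23.2 TPM in the vector group. Endosomal members summed to 15.4 to 20.2 TPM in the Colq group and 21.9 to 36.9 TPM in the vector group, and without Tlr3 to 6.38 to 10.4 and 5.90 to 15.2 TPM, ranges that overlap. Shares of the sum do not depend on a common scale. Tlr3 made up 26.1% ± 2.24 of the sum in the Colq group and 38.7% ± 2.49 in the vector group, and Tlr1 made up 10.3% ± 0.94 and 5.50% ± 0.79 (SD, n = 3 each), without overlap for either. The shares of Tlr7 (5.59 to 14.0% and 3.21 to 4.80%) and Tlr5 (0.933 to 2.97% and 0.386 to 0.650%) did not overlap either, and those of the 6 other members did. Shares of a sum are not independent, and a lower share of Tlr3 by itself raises the shares of the others. In TPM the tumors of the groups overlapped for Tlr1 and Tlr7 but not for Tlr5. Endosomal members made up 48.2 to 53.8% in the Colq group and 56.3 to 62.7% in vector tumors. These shares include Tlr3, without which the endosomal sums overlapped, as given above.

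Leukocyte and stromal markers moved with the groups, and in bulk tumor fewer cells of a type and less RNA per cell cannot be told apart. Of 12 macrophage markers 3 were called higher and 1 lower, with a median log2 difference of 0.62 and a summed TPM of 1642 to 1688 in the Colq group and 475 to 1020 in vector tumors. Much of that sum was Lyz2, a lysozyme of macrophages, at 869 ± 4.37 and 188 ± 32.5 TPM. After size factors 10 were higher and 0 lower, with a median of 1.09. Single markers, picked after their values were seen, went different ways: Aif1 was higher (49.5 ± 2.16 and 19.4 ± 10.1 TPM) and Mertk lower (3.76 ± 0.27 and 5.95 ± 0.80 TPM), while others overlapped between the groups, among them Adgre1 at 22.2 ± 1.15 and 16.1 ± 8.14 TPM, Csf1r at 14.9 ± 1.03 and 17.2 ± 6.56 TPM and Ptprc, the pan leukocyte marker CD45, at 13.7 ± 0.18 and 13.6 ± 6.63 TPM (SD, n = 3 each). Vector tumor 3 was lowest in Adgre1 (9.61 TPM), Csf1r (9.99 TPM) and Ptprc (8.66 TPM), and it was also the lowest vector tumor in all 10 receptors except Tlr4. Of 10 pan leukocyte markers 4 were higher and 0 lower, and 6 and 0 after size factors (summed TPM 1252 to 1301 and 773 to 1173). Of 7 tested markers of conventional dendritic cells 5 were higher and 0 lower on both scales (80.6 to 90.8 and 36.6 to 56.2 TPM). Neutrophil markers ranged from 20.5 to 23.6 TPM in the Colq group and from 2.53 to 65.7 TPM in the vector group, with Ngp under 0.1 TPM in every library. Of 9 tested endothelial markers 8 were lower, and 6 after size factors (85.4 to 89.5 and 161 to 213 TPM). Of 10 melanocyte and melanoma markers 9 were lower and 0 higher, and 7 and 2 after size factors. Of 10 fibroblast markers 6 were higher and 2 lower, and 7 and 1 after size factors (409 to 446 and 226 to 298 TPM). Of 10 skeletal muscle markers all were higher on both scales (885 to 907 and 48.3 to 106 TPM). These counts stand beside 11.3% of all tested genes higher and 59.6% lower as deposited, and 26.5% and 27.4% after size factors. The part of these cell types in the receptor levels was not tested.

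Set against macrophage markers, most receptors were lower in Colq tumors, and so were most genes. The value used was log2(TPM + 1) of the receptor minus the mean of the 12 markers on the same scale. Tlr3 averaged -2.13 ± 0.11 over the Colq tumors and -0.57 ± 0.34 over the vector tumors (SD, n = 3 each), a difference of -1.56 (exact permutation test, two-sided, p = 0.1). Of the 10 members, 7 were lower in Colq tumors with no overlap of the groups. The differences of the 6 others were -1.20 for Tlr9, -0.97 for Tlr13, -0.93 for Tlr6, -0.89 for Tlr2, -0.87 for Tlr4 and -0.71 for Tlr8. Tlr1 (-0.27), Tlr5 (-0.31) and Tlr7 (-0.24) overlapped between the groups. Of all 13726 tested genes, 75.9% were lower in Colq tumors with no overlap. The median difference of all tested genes was -1.09, the mean of the markers being higher in Colq tumors. Against 10 pan leukocyte markers 6 members were lower with no overlap, beside 70.9% of all genes, with Tlr3 at -1.50, Tlr4 at -0.81 and a median of all genes of -1.03. Tlr8 overlapped on that scale, at -0.65.

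**Figure D3:**
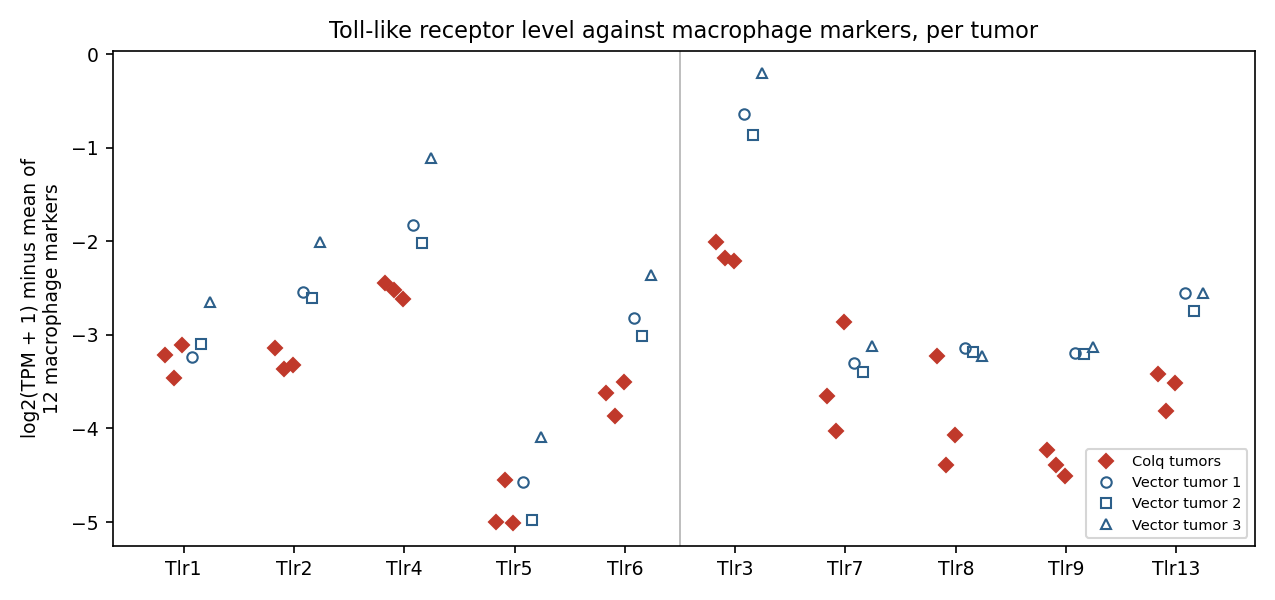
Level of each Toll-like receptor per tumor, as log2(TPM + 1) minus the mean of 12 macrophage markers on the same scale; filled diamonds are Colq tumors and open symbols vector tumors. The Colq tumors lie below the vector tumors for 7 members, as for 75.9% of all tested genes, and overlap them for Tlr1, Tlr5 and Tlr7.

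The tumors of the 2 groups did not overlap for 2 of the 9 tested members, Tlr3 and Tlr4, both lower in Colq tumors, beside 74.7% of all tested genes. For Tlr2, Tlr6, Tlr9 and Tlr13 vector tumor 3 was the only vector tumor that overlapped the Colq tumors. Without it 6 members were called lower in Colq tumors: Tlr3 (log2 difference -1.08, limma adjusted p = 0.000158), Tlr9 (-0.87, 0.00508), Tlr13 (-0.64, 0.00902), Tlr6 (-0.45, 0.0350), Tlr2 (-0.40, 0.0440) and Tlr4 (-0.30, 0.0481). That tumor was also low in macrophage markers, and the part of those cells in its receptor levels was not tested.

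The members differed in how they varied from library to library, and genes with the most similar profile were sought for the 4 members of highest mean. The values below are Pearson correlations of log2(TPM + 1) over the 8 libraries, which include portions of the same tumors and fall into 2 groups, so r after subtraction of the group means is given too; they describe these libraries only. Tlr3 was most alike to Sptbn1, a spectrin of the membrane skeleton (r = 0.998, and 0.988 with group means removed), Sh2b3, an adaptor of cytokine receptor signaling (0.998 and 0.973), and Eif2ak2 (0.997 and 0.967). Eif2ak2 encodes PKR, the kinase that binds double-stranded RNA in the cytosol, and stood at 17.2 TPM in the Colq group and 36.2 TPM in the vector group. Tlr4 was most alike to the gene models Gm26658 (0.981 and 0.961) and F830016B08Rik (0.978 and 0.966) and to Pced1a (0.977 and 0.975). Tlr2 was most alike to Wipf1, an actin regulator of leukocytes (0.980 and 0.958), Tsen34 (0.979 and 0.959) and Rhbdf2, which controls the release of TNF (0.977 and 0.953). Tlr13 was most alike to Fhl2 (0.972 and 0.962), Gatm (0.970 and 0.969) and the transglutaminase Tgm2 (0.965 and 0.944). Among the members themselves the closest pairs were Tlr9 with Tlr13 (0.935 and 0.892) and Tlr9 with Tlr2 (0.934 and 0.860). Tlr1 varied with Tlr7 (0.766 and 0.736) and, within the groups, with Tlr2 (0.184 and 0.892).

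The other genes of the pathway are given by role, from lists made by function. The counts here and below stand beside 11.3% of all tested genes called higher and 59.6% lower as deposited. After size factors the shares of all genes were 26.5% and 27.4%. No list was tested as a set. Of 21 tested coreceptors, chaperones and transport factors 4 were higher and 7 lower, with a median log2 difference of -0.19. On the size factor scale 8 were higher and 5 lower. The lower genes included Hsp90b1, the endoplasmic reticulum chaperone gp96 that folds most Toll-like receptors, at 404 ± 5.97 and 856 ± 70.6 TPM (SD, n = 3 each; log2 difference -1.08, limma adjusted p = 2.00e-05). They also held Ap3b1, an endosomal sorting adaptor (-1.12), Lrrc59 (-0.84) and Tmed7 (-0.79), whose difference was -0.03 with the length trend removed. The 4 higher genes were Lbp and Cd14, which pass lipopolysaccharide to Tlr4, Ly86 and Rab7b, named after their values were seen. Their number was 1 without Colq tumor 2 or 3 and 2 without Colq tumor 1 or vector tumor 1. It was 2 with first portions and 1 with no filter. Unc93b1, the carrier of the endosomal receptors, named for that role after its value was seen, did not pass the threshold (-0.19, adjusted p = 0.261). Of 26 tested adaptors, kinases and ubiquitin enzymes 3 were higher and 18 lower, with a median of -0.63, and on the size factor scale 7 were higher and 8 lower. Traf3, an adaptor on the way to type I interferon, fell to 8.91 ± 0.20 from 23.6 ± 2.57 TPM (SD, n = 3 each; -1.30, adjusted p = 3.22e-05) and was also lower after size factors (-0.80). Irak1, a kinase below Myd88, and Tab2 differed by -0.83 each. Ube2v1 differed by -0.64 as deposited and by -0.09 after size factors (adjusted p = 0.179). The 3 higher genes, also named after their values were seen, were Ticam2, Irak2 and Map3k8, and their number was 0 without Colq tumor 2 and 1 without Colq tumor 1 or vector tumor 1. It was also 1 with no filter or with a filter of at least 5 TPM. The adaptor of Tlr3, Ticam1, named like Myd88 for its role after its value was seen, was lower (-0.86, limma adjusted p = 0.000570). It was lower too after size factors (-0.39, adjusted p = 0.0343) and with the length trend removed (-0.56, adjusted p = 0.00856). The adaptor of most other members, Myd88, did not pass as deposited (0.08, adjusted p = 0.433). Myd88 was called higher after size factors (0.59, adjusted p = 0.00144) and with the length trend removed (0.30, adjusted p = 0.0289).

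Of 13 transcription factors 2 were higher and 5 lower, with a median of -0.22, and 4 and 4 after size factors. The 5 lower genes were Rela (21.1 ± 1.34 and 45.4 ± 1.12 TPM; -1.07, adjusted p = 2.40e-05), Nfkb2 (-0.94), Nfkb1 (-0.85) and Rel, all of the NF-kB family, and Jun of the AP-1 family (-0.73). Nfkb1 was -0.33 after size factors (adjusted p = 0.0171) but 0.02 with the length trend removed, and Jun was -0.21 after size factors (adjusted p = 0.151). The higher genes, named after their values were seen like Rel, were the interferon regulatory factors Irf5 and Irf8, and their number was 1 without Colq tumor 1, 2 or 3 or vector tumor 1 or 3. That number was 0 with first portions or with no filter, and 1 with second portions or with all 8 libraries as independent. Of 20 inhibitors 5 were higher and 5 lower, with a median of -0.18, and 10 and 1 after size factors. The number higher was 3 with first portions or with no filter. With the Colq libraries as 1 sample, 1 inhibitor was higher and 3 lower, and the higher calls were 0 for transcription factors, 0 for adaptors and kinases and 1 for coreceptors. Dok2, an adaptor that restrains Tlr4 signaling in myeloid cells, rose to 11.8 ± 1.51 from 3.47 ± 0.69 TPM (SD, n = 3 each; 1.55, adjusted p = 9.83e-05). The ubiquitin binding Tnip1 (-0.82), the deubiquitinase Otulin (-0.60) and Tollip (-0.46) were lower as deposited, but Otulin was -0.08 after size factors (adjusted p = 0.368) and Tollip was positive there (0.07, adjusted p = 0.389). The remaining calls, named after their values were seen, were Irak3, Tnip3, Lilrb4a and Pirb, which were higher, and Tnfaip3 and Sigirr, which were lower. After size factors Tnfaip3 was -0.11 (limma adjusted p = 0.425) and Sigirr -0.18 (limma adjusted p = 0.514). With the length trend removed they were 0.12 and -0.36 (limma adjusted p = 0.418 and 0.199).

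Genes that Toll-like receptor ligands induce in macrophages went the other way from most genes. Of 32 listed genes 26 were tested, 15 of them higher and 4 lower, with a median of 0.70, and 19 and 1 after size factors (median 0.99). With the Colq libraries counted as 1 sample 7 were higher and 2 lower. The chemokine Ccl7 stood at 143 ± 3.65 and 47.9 ± 13.1 TPM (SD, n = 3 each; 1.61, limma adjusted p = 0.000225) and the scavenger receptor Marco at 4.81 ± 0.37 and 0.782 ± 0.41 TPM (1.75). The 4 lower genes were the adhesion molecule Icam1 (7.05 and 15.9 TPM; -1.05), Cxcl10 (153 and 208 TPM; -0.43), and, named after their values were seen, Cxcl9 and Sod2. Cxcl10 was positive after size factors (0.11, adjusted p = 0.137). Cxcl9 was at -0.04 on that scale (limma adjusted p = 0.767). Sod2 was called higher there (0.29, limma adjusted p = 0.0109) and with the length trend removed (0.56, limma adjusted p = 0.000561). Of 9 monocyte markers 5 were higher and 2 lower (summed TPM 318 to 335 and 128 to 186), beside the macrophage counts above, and the part of these cells in the induced genes was not tested. Of 15 tested proteins of injured tissue and matrix described as endogenous ligands 4 were higher and 8 lower, with a median of -0.28, and 6 and 5 after size factors. Dcn, the proteoglycan decorin, rose to 80.4 ± 3.55 from 16.6 ± 5.13 TPM (2.35) and is also 1 of the 10 fibroblast markers, whose part was not tested; the others that rose, named after their values were seen, were Saa1, Saa3 and Lgals3. Fn1, fibronectin (26.6 and 82.4 TPM; -1.57), the chaperone Hspd1 (307 and 644 TPM; -1.05) and Bgn, biglycan (39.7 and 79.7 TPM; -0.96), fell.

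Sensors outside the family fell into both directions, 8 higher and 8 lower of 25 tested, with a median of 0.43, and 15 and 5 after size factors. The higher ones included the lectins Clec7a, a receptor of fungal glucan (32.6 ± 2.31 and 7.85 ± 1.68 TPM; 1.95, adjusted p = 2.98e-05), Clec4n (1.56) and Cd209a (1.62). The lower ones included Mavs, the adaptor of the cytosolic RNA sensors (14.4 ± 0.67 and 25.7 ± 1.97 TPM; -0.79, adjusted p = 0.000127; -0.28, adjusted p = 0.0188 after size factors). Several cytosolic receptors of double-stranded RNA, picked out after their values were seen because Tlr3 binds the same ligand, were lower too as deposited. Zbp1, another nucleic acid sensor of this list and also named after its value was seen, was higher (0.69, limma adjusted p = 0.0213). After size factors Zbp1 was at 1.23 (adjusted p = 0.00328). Rigi stood at 15.6 ± 0.67 and 36.5 ± 7.01 TPM (-1.16; -0.64 after size factors), Ifih1, which encodes MDA5, at 15.04 ± 0.58 and 34.7 ± 6.17 TPM (-1.14; -0.62) and Eif2ak2 at -1.02 and -0.50 (limma adjusted p of all 3 between 0.000180 and 0.000229, and after size factors between 0.00747 and 0.0123). Dhx58, which encodes LGP2 of the same receptor family, was -0.76 as deposited (adjusted p = 0.0152) but missed the threshold on the size-factor scale (-0.24, adjusted p = 0.397) or with the length trend removed (-0.42, adjusted p = 0.146).

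**Figure D4:**
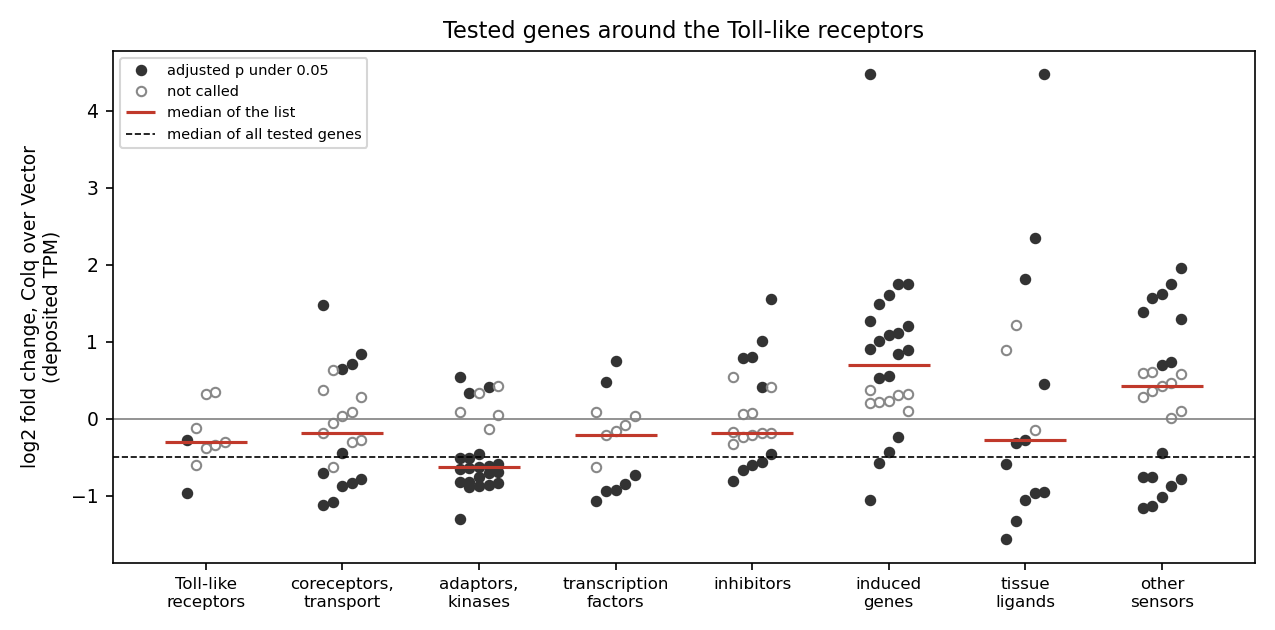
Log2 difference, Colq over vector as deposited, of each tested gene in the Toll-like receptor set and in 7 lists of related genes; filled points were called at an adjusted p under 0.05, red lines are the medians of the lists and the dashed line is the median of all tested genes (-0.50). Adaptors and kinases lie mostly below 0 (median -0.63), induced genes mostly above it (median 0.70).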

How the data were processed

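Bulk tumor RNA was taken up in TRIzol and its poly-A fraction sequenced from non-stranded libraries, per the labels' protocols. The authors deposited log2(TPM + 1) values, per the values themselves, whose TPM came from RSEM with mm39 as the genome build, per the submitters' processing notes, with an aligner and annotation not given in the sources used here. The authors' deposited comparison, from DESeq2 per the submitters' processing notes, holds a mean normalized signal, a log2 fold change, its error, a Wald score and p-values per gene. The libraries that entered it are not stated there, and its direction was taken from Colq. For 26581 of its IDs (96.1%) a symbol was found. A deposited table of receptor repertoires was not used.

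Portions were averaged per tumor on the log2 scale for tests and as TPM for means. Genes with a mean of at least 1 TPM over the 6 tumors (13726) were tested with limma 3.58.1 in R 4.3.3 (trend), Colq minus vector, with Benjamini-Hochberg adjustment and a threshold of 0.05; the fit was tested on simulated data. Single values were set against each other by exact permutation of the tumors, two-sided. Other steps used Python 3.11.15, numpy 2.4.6, pandas 2.3.3 and matplotlib 3.10.9. Exonic lengths, positions and coding sequences came from GENCODE M21 on GRCm38, which is not the authors' build, with lengths for 13211 (96.2%) of the tested genes. The length trend was a loess curve of span 0.5.

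The members, the gene lists and the tests were chosen with earlier results of these data known. Genes named were all 10 members, up to 4 of each pathway list by smallest p, and the 3 genes most alike to each of the 4 most abundant members; other names were chosen after their values were seen, and the report says so. Alternatives were pseudocounts of 0.1 and 0.5, no filter or at least 5 TPM, size factors, quantile normalization, other uses of the portions, a replicate block, leaving out each tumor, the Colq libraries as 1 sample and removal of the length trend.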

Additional observations from a re-analysis of the deposited data

How the results depend on the processing

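As deposited, 1556 genes were higher and 8181 lower, with 0 and 2 members among them. Size factors gave 3633 and 3756 (members 1 and 1), quantile normalization 3142 and 4267 (1 and 1) and removal of the length trend 2610 and 3610 (2 and 1). With the Colq libraries as 1 sample (its spread taken to equal that of the vector tumors), 788 genes were higher, and 1 member was lower. First portions, second portions and no filter each left 1 member lower, Tlr3. Leaving out each tumor gave 1 to 6 members lower and 0 to 1 higher. The replicate numbers come from the labels but do not pair tumors (same-number deviations correlated at 0.030, 0.007 and 0.044), and the replicate block left 1526 genes higher, 7928 lower and 1 member lower.

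Tlr2, Tlr6, Tlr8 and Tlr13, not called as deposited, turned positive with size factors and without the length trend, Tlr2 and Tlr8 with quantile normalization, and Tlr8 also without Colq tumor 2 (0.099) or vector tumor 2 (0.12). Of called members and called list genes named by smallest p, signs turned for Tlr4 (0.19 with size factors, 0.20 with quantile normalization, 0.30 without the length trend), Tollip (0.065, 0.071 and 0.079), Cxcl10 (0.11 with size factors) and Nfkb1 (0.021 without the length trend). Among called genes named after their values were seen, Sod2 turned to 0.29 with size factors and to 0.56 without the length trend. Tnfaip3 turned to 0.12 without the length trend. Relative to macrophage and pan leukocyte markers, Tlr5 turned to 0.22 and 0.29 with a pseudocount of 0.1, and Tlr7 to 0.016 and 0.078 without Colq tumor 2, against -0.57 and -0.51 without Colq tumor 3. The cause was not tested. The counts of the pathway lists under each setting were added after the data were seen.

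Library depth is unknown; the authors' deposited table gives a mean normalized count of 13.7 for Tlr5. Counts of calls depend on the scale, since most genes shifted together. With 3 tumors against 3, an exact test cannot go below 0.1, and 1 tumor, vector tumor 3, changes the number of members called from 2 to 6.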
